A study of Mus musculus with 65 samples.

Results

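Nfia, Nfib and Nfix are the nuclear factor I transcription factor genes linked to the switch of cortical progenitors towards glia. They were taken by gene name, as 3 of the 10407 genes in the deposited tables, and their values were followed in every cell. The cells came from CD1 mouse embryos and were sequenced by Patch-seq, which draws up what a single cell contains with a patch pipette. The first group held 19 progenitors taken at embryonic day 15 (E15) and transplanted into an E12 brain, called transplanted cells below. The second held 26 untransplanted E15 cells and the third 20 untransplanted E12 cells, both marked with FlashTag, a fluorescent dye taken up by progenitors that divide at the ventricle. The labels name the condition of the last 2 groups WT and give no genotype, transgene or other agent for any group. They name no donor, host or litter, so each group stood as 1 sample, and no test between groups could be made. The transplantation itself was undergone by the transplanted cells alone and cannot be told apart from the host's age.

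Nuclear factor I proteins bind DNA as dimers, and each subunit contacts a half-site that begins TTGGC. In the mouse cortex they are known from radial glia, the progenitors that line the ventricle and first make neurons and later astrocytes. Loss of Nfia or Nfib in mice is known to delay or reduce the appearance of astrocytes, and Nfix is known to help progenitors leave the self-renewing state in the developing forebrain and hippocampus. The question put to the data was how much of the 3 transcripts E15 progenitors held after transfer to a younger brain, beside E15 and E12 progenitors that were not moved.

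In GENCODE vM21 (GRCm38, the assembly also called mm10), Nfia lies at chr4:97772734-98118874 on the plus strand, Nfib at chr4:82290173-82705750 on the minus strand and Nfix at chr8:84699876-84800344 on the minus strand. Exons of Nfia overlap those of E130114P18Rik, and exons of Nfix those of Lyl1 and G430095P16Rik, all on the opposite strand. Whether the counting used strand is not given in the sources used here, so reads from these overlaps could not be assigned with certainty. RefSeq promoter windows on GRCm38.p6, from 250 bases before to 50 bases after a transcription start, were at hand for 2 of the 3 genes, Nfia with 1 window and Nfix with 4. The extended half-site TTGGCA, searched on both strands (TGCCAA on the other), was in 14.1% of all 32851 windows and in 16.1% of the 27025 genes with a window. It was in none of the Nfia and Nfix windows. It was in a window of 4 of the 10 genes with a window in a list of 15 genes reported as regulated or bound by nuclear factor I proteins in neural cells (Ezh2, Insc, Mmd2 and Tnc). The Nfia window and the first of the Nfix windows are shown because the results turn on these genes. Windows of Mmd2 and Tnc are shown because their levels are given below beside those of the factors. Bases are written 5′ to 3′ on the gene's strand, in lower case with TTGGCA or TGCCAA in capitals. The windows are chr4:97581693-97581992 (plus strand) for Nfia, upstream of the GENCODE interval, chr8:84780033-84780332 (minus strand) for Nfix, chr5:142608703-142609002 (minus strand) for Mmd2 and chr4:64046887-64047186 (minus strand) for Tnc.
Nfia: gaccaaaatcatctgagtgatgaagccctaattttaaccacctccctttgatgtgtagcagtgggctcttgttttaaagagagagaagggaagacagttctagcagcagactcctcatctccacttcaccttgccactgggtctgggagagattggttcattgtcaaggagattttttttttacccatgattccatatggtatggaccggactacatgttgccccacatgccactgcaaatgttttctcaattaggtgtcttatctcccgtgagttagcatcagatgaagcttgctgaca
Nfix: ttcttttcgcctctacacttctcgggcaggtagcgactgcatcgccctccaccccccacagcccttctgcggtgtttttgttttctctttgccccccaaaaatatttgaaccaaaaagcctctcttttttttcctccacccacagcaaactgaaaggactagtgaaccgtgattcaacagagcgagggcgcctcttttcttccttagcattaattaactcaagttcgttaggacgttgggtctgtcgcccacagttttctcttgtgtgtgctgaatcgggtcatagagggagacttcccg
Mmd2: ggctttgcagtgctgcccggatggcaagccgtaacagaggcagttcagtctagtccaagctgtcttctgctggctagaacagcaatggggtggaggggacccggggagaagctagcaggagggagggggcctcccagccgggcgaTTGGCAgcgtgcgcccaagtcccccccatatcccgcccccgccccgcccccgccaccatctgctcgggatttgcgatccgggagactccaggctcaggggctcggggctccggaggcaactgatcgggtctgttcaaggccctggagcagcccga
Tnc: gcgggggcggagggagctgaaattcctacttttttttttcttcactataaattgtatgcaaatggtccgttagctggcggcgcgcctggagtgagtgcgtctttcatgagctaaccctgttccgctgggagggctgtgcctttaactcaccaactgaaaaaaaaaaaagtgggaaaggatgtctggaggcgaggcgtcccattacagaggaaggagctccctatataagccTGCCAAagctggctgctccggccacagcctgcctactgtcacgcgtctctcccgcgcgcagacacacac
The single match began 105 bases before the start in the Mmd2 window and 19 bases before it in the Tnc window. A match describes these letters and is not a binding site, and no binding was measured.

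Read counts were recovered from the deposited log10 values and are given as CPM, the reads of a gene in every 1000000 reads of the cell or, for a group, of all its cells together. Cells held 22358 to 3622411 reads among transplanted cells, 11449 to 4560871 among E15 cells and 10928 to 1635767 among E12 cells. Libraries with reads of more than 8000 genes were treated apart. No gap marked this limit, with libraries of 7827 and 8193 genes on either side of it. Libraries above it numbered 5 of 19 transplanted, 11 of 26 E15 and 0 of 20 E12 cells, and held 63.5% of all transplanted and 70.6% of all E15 reads. All 18 listed markers of apical progenitors had reads in every group, with a median summed level of 4932 CPM in transplanted, 4414 CPM in E15 and 8911 CPM in E12 cells. In the cells with more than 8000 genes this median was 2452 CPM in transplanted and 1950 CPM in E15 cells. For 15 markers of neurons the median sum was 4816 CPM in transplanted, 5773 CPM in E15 and 1223 CPM in E12 cells. In the cells with more than 8000 genes it was 9967 CPM in transplanted and 7433 CPM in E15 cells. The summed level of 13 markers of ventral telencephalon and interneurons had a median of 3041 CPM in these transplanted and 4144 CPM in these E15 cells, against 665 and 640 CPM in the other cells of the same groups and 260 CPM in E12 cells. Single cells crossed this division. E15 replicate 26, with 7587 genes, had 3736 CPM of these markers, and transplanted replicate 14, with 8193 genes, had 134 CPM. Results are therefore given with and without the libraries above 8000 genes, and the part of the other cell types' transcripts in them was not tested.

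In summed reads, Nfix had the lowest ratio of the 3 genes in transplanted cells over each untransplanted group. Transplanted cells ranged over 0 to 1112 CPM with a median of 71.8, E15 cells over 0 to 1827 CPM with a median of 357, and E12 cells over 0 to 1601 CPM with a median of 561. The groups overlapped over most of their range, but only 6 of 19 transplanted cells stood above the E15 median, beside 14 of 20 E12 cells. For E15 cells this was 13 of 26 by definition of the median. Summed over cells, Nfix had 102 CPM in transplanted, 469 CPM in E15 and 536 CPM in E12 cells, with exact 95% Poisson limits of 96.2 to 107, 463 to 476 and 516 to 557 CPM. These limits cover counting error only, since no molecular identifiers are named for these libraries and PCR copies of 1 molecule can count as separate reads. The transplanted level was 4.62-fold lower than the E15 level (95% counting limits 4.36 to 4.89) and 5.27-fold lower than the E12 level (4.93 to 5.64). With 2-fold as the size that counts as a difference, on a log2 scale with 1 CPM added, 11.8% of 10163 genes were lower in transplanted than in E15 cells by that much and 4.71% were higher. In transplanted over E12 cells, 24.7% of 9931 genes were lower and 22.9% higher by that much. A log2 ratio below that of Nfix was held by 1.95% of genes over E15 cells and by 5.61% over E12 cells.

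**Figure D1:**
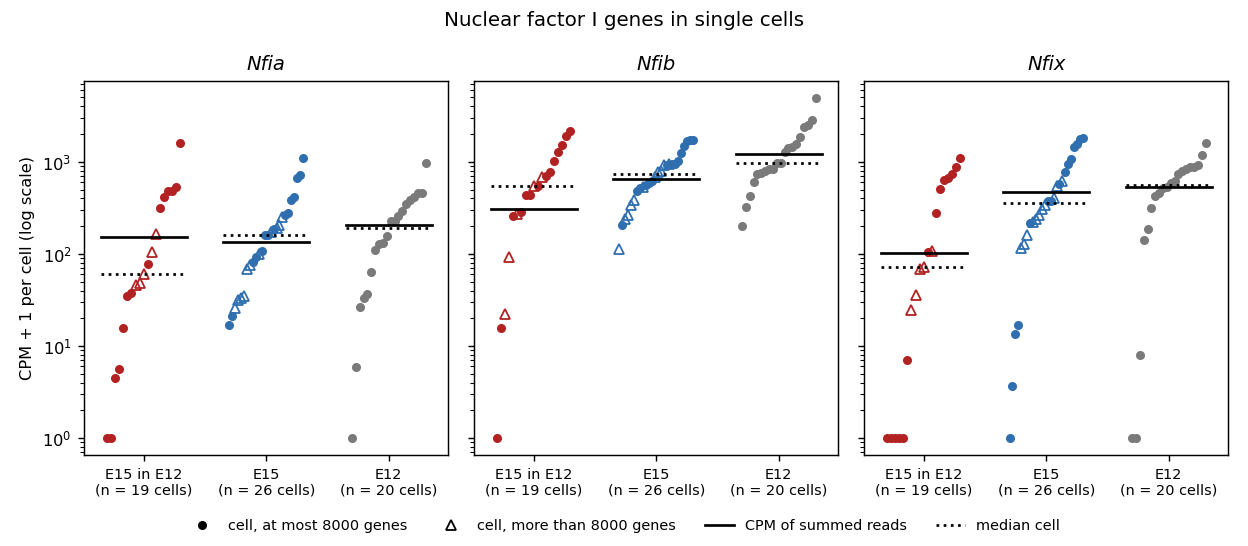
CPM plus 1 of Nfia, Nfib and Nfix in every cell, on a log axis, for transplanted (E15 in E12, 19 cells), E15 (26 cells) and E12 cells (20 cells). Filled circles are cells with at most 8000 genes and open triangles cells with more, solid lines the CPM of summed reads and dotted lines the median cell. For Nfix, 5 transplanted cells lie at 0 and the other transplanted cells spread up to 1112 CPM, within the range of the untransplanted groups.

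The lower Nfix level of transplanted cells was seen on both sides of 8000 genes. Among cells with more than 8000 genes, the 5 transplanted cells ranged over 23.5 to 106 CPM with a median of 68.2, and the 11 E15 cells over 114 to 617 CPM with a median of 260. Every one of these transplanted cells lay below every one of these E15 cells, which was the case for 0.192% of 9873 genes (19 genes). This comparison was chosen after the values had been seen. The summed levels were 71.9 CPM in transplanted and 272 CPM in E15 cells, a 3.78-fold lower level in transplanted cells (3.47 to 4.12), where 9.36% of genes were at least 2-fold lower and 3.69% at least 2-fold higher. Microglia and macrophage markers had a median sum of 17.9 CPM in these transplanted and 2463 CPM in these E15 cells, and their part in the Nfix values was not tested. Among the remaining cells, Nfix had 153 CPM in the 14 transplanted and 944 CPM in the 15 E15 cells, a log2 ratio of -2.61. There, 28% of genes were at least 2-fold lower in transplanted cells, and the 2 groups overlapped. This sum leaned on the 2 deepest transplanted cells, replicates 19 and 18. They held 2584656 and 850956 reads, with 103 and 0 CPM of Nfix. With each cell given the same weight, the mean was 352 CPM in the 14 transplanted and 732 CPM in the 15 E15 cells. Marker sums also differed between these cells: the median was 7037 CPM in transplanted and 16990 CPM in E15 cells for apical progenitors, 3582 and 1370 CPM for neurons, and 8332 and 349 CPM for erythroid cells. Their part in the Nfix values was not tested. Over the 20 E12 cells the log2 ratio of these 14 transplanted cells was -1.80, with 29.8% of genes at least 2-fold lower.

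Giving each cell the same weight moved Nfix closer to the limit. The mean of the cells' CPM was 275 in transplanted, 550 in E15 and 580 in E12 cells, and the log2 ratio was -0.996 over E15 cells, just short of 2-fold, and -1.07 over E12 cells. On these means 19.2% of genes were at least 2-fold lower in transplanted than in E15 cells, and 23% than in E12 cells. Without the libraries above 8000 genes, the ratios of means were -1.05 over E15 and -0.72 over E12 cells, so the second fell short of 2-fold. The labels also give a pool letter, A to H, whose meaning they do not define. Nfix was lower in transplanted than in E15 cells in 6 of the 7 pools that held both, with log2 ratios of -7.26 to -1.02, and higher in pool G at 0.89. It was lower in transplanted than in E12 cells in 7 of 7 pools, with log2 ratios of -6.00 to -0.61. Each pool held only 1 to 5 cells of a group.

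**Figure D2:**
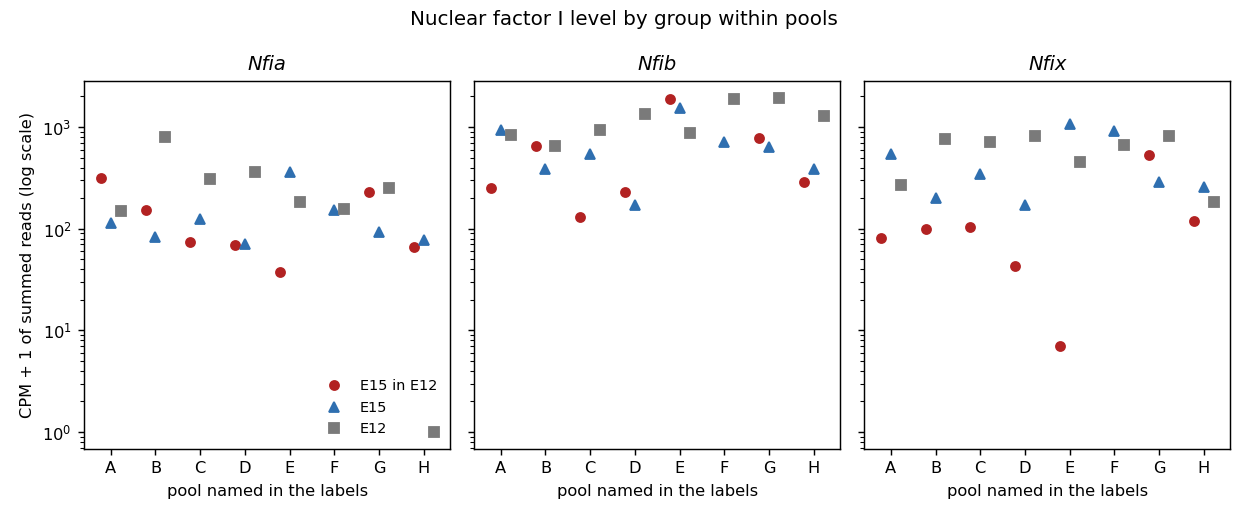
CPM plus 1 of the summed reads of each group within each pool, on a log axis, for Nfia, Nfib and Nfix. Circles are transplanted, triangles E15 and squares E12 cells; in the Nfix panel the transplanted value is below the E15 value in every pool with both but G.

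A larger share of transplanted than of untransplanted cells had no Nfix read. The part of these cells in the low summed level was not tested. Nfix had a read in 14 of 19 transplanted cells (73.7%, exact binomial limits 48.8% to 90.9%), 25 of 26 E15 cells (96.2%, 80.4% to 99.9%) and 18 of 20 E12 cells (90%, 68.3% to 98.8%). At 28614 reads drawn per cell, which left out 7 shallower cells, it had a read in 9 of 17 transplanted, 21 of 24 E15 and 15 of 17 E12 cells. The 5 transplanted cells without a read held 39900 to 850956 reads, and 0 reads allowed levels of up to 3.53 CPM in the deepest of them (3 reads of the total) and up to 75.2 CPM in the shallowest. The 1 E15 cell without a read held 24673 reads, which allowed up to 122 CPM. Nfib had reads in 4 of the 5 transplanted cells, and Nfia in 3 of them, with 1, 1 and 3 reads. The sum of erythroid markers, of which 5 of 9 were in the tables, ran over 11240 to 39223 CPM with a median of 22673 in these 5 cells, and over 25.2 to 64865 CPM with a median of 2811 in the 14 transplanted cells with an Nfix read. In E12 cells the median was 2900 CPM in the 2 cells without and 2946 CPM in the 18 cells with an Nfix read. In the 5 transplanted cells without an Nfix read, the sum of microglia and macrophage markers ran over 383 to 17118 CPM with a median of 815. It ran over 0 to 2009 CPM with a median of 88.2 in the 14 transplanted cells with a read. The part of blood or microglial transcripts in these cells was not tested.

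Nfib, whose loss in mice is known to disturb both the corpus callosum and the formation of glia, showed the same order of summed levels as Nfix. Transplanted cells ranged over 0 to 2173 CPM with a median of 541, E15 cells over 111 to 1735 CPM with a median of 732, and E12 cells over 202 to 4931 CPM with a median of 969. The ranges overlapped throughout, and 6 of 19 transplanted, 16 of 20 E12 and, by definition, 13 of 26 E15 cells stood above the E15 median. Summed levels were 310 CPM in transplanted (limits 300 to 320), 646 CPM in E15 (638 to 654) and 1207 CPM in E12 cells (1176 to 1238). The transplanted level was 3.897-fold lower than the E12 level (3.74 to 4.06), and 9.05% of genes had a log2 ratio below that of Nfib. It was 2.08-fold lower than the E15 level (2.02 to 2.16), and this value did not hold up. It fell under 2-fold when any 1 of 7 cells was left out, namely E15 replicates 2 and 13 (log2 ratios -0.99 and -0.89) and transplanted replicates 6, 14, 15, 18 and 19 (-0.96, -0.88, -0.99, -0.96 and -0.998). On mean CPM per cell the log2 ratio was -0.22, and within pools Nfib was lower in transplanted cells in only 3 of 7.

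Nfib was detected almost everywhere. It had a read in 18 of 19 transplanted, 26 of 26 E15 and 20 of 20 E12 cells, and in 16 of 17, 24 of 24 and 17 of 17 cells at the drawn depth. The 1 cell without a read, transplanted replicate 18, was deeply sequenced (850956 reads) and held 3 reads of Nfia and 0 of Nfix. This cell had 5423 CPM of microglia and macrophage markers and 24584 CPM of erythroid markers, and Hbb-y, an embryonic beta-like globin gene, had the most reads in it. It held 33.5% of the transplanted reads of Nfic, the remaining gene of the family. Nfib had 388 CPM in transplanted and 1076 CPM in E15 cells without the libraries above 8000 genes (log2 ratio -1.47), but a log2 ratio of means of only -0.27 in the same cells.

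Nfia, known as an early trigger of glial competence in the mouse and chick spinal cord, gave no difference of 2-fold in summed reads between any pair of groups. Transplanted cells ranged over 0 to 1605 CPM with a median of 59.6, E15 cells over 15.8 to 1090 CPM with a median of 159, and E12 cells over 0 to 972 CPM with a median of 191. Summed levels were 151 CPM in transplanted (limits 145 to 158), 134 CPM in E15 (130 to 137) and 207 CPM in E12 cells (194 to 220). The transplanted sum rested on 1 cell: replicate 19 held 56% of the group's 1923 Nfia reads, at 416 CPM in a library of 2584656 reads, and had 64865 CPM of erythroid markers. Without it the log2 ratio was -0.67 over E15 cells, against 0.18 with it, and -1.30 over E12 cells, against -0.45 with it. Nfia thus had a lower median cell but a higher sum in transplanted than in E15 cells, and its direction depended on the measure. Nfia had a read in 17 of 19 transplanted, 26 of 26 E15 and 19 of 20 E12 cells.

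Between untransplanted E15 and E12 cells none of the 3 genes differed by 2-fold in summed reads, whereas 25.3% of 10193 genes were at least 2-fold higher in E15 cells and 20.3% at least 2-fold lower. The log2 ratios of E15 over E12 cells were -0.63 for Nfia, -0.90 for Nfib and -0.19 for Nfix. For Nfia and Nfix the direction turned without the E15 libraries above 8000 genes, to 0.28 and 0.82, and for Nfib the ratio shrank to -0.16. Leaving out E12 replicate 5 or E15 replicate 13 took Nfib past 2-fold, at -1.03 and -1.07. E12 replicate 5 alone held 36.2% of E12 Nfia, 26.8% of E12 Nfib and 32% of E12 Nfix reads. Within the 8 pools with both ages, Nfia and Nfib were lower in E15 cells in 6 each and Nfix in 4. Reads of all 3 genes were already present at E12, in 17 of 20 cells, as in 25 of 26 E15 and 14 of 19 transplanted cells.

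**Figure D3:**
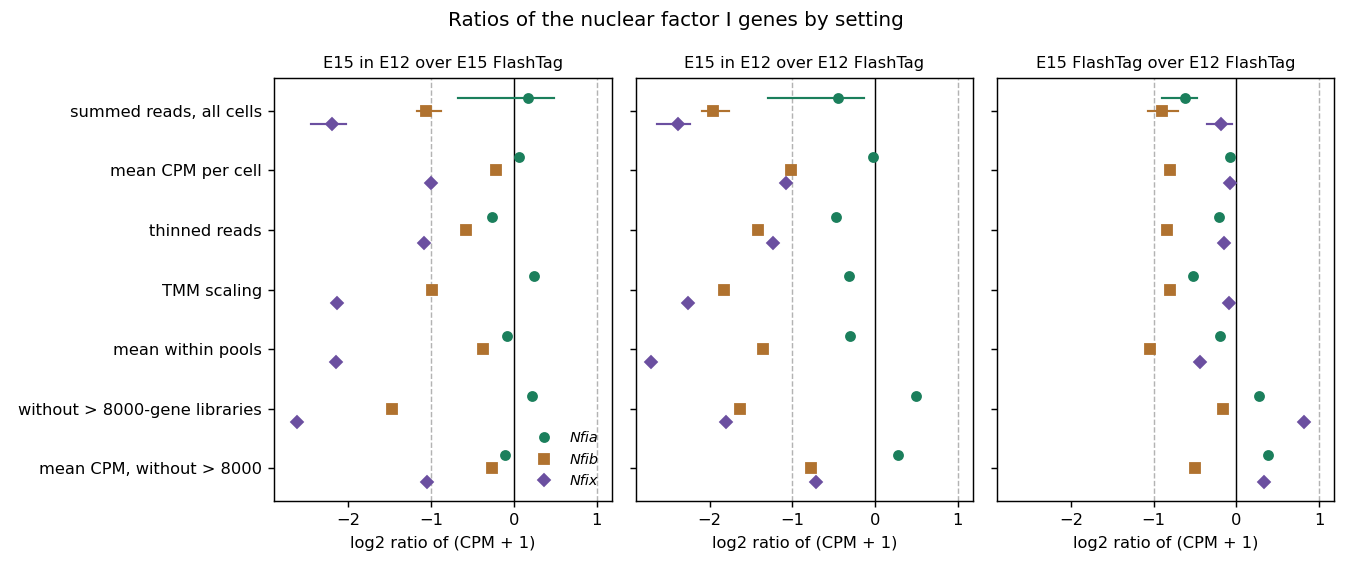
Log2 ratio of CPM plus 1 for each pair of groups, with 1 row per way of computing the group level. Circles are Nfia, squares Nfib and diamonds Nfix; horizontal lines in the top row span the values with each single cell left out, and dashed lines mark 2-fold. Nfix lies left of 0 in both comparisons of transplanted cells in every row, while Nfia lies on both sides of 0 in each panel.

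**Figure D4:**
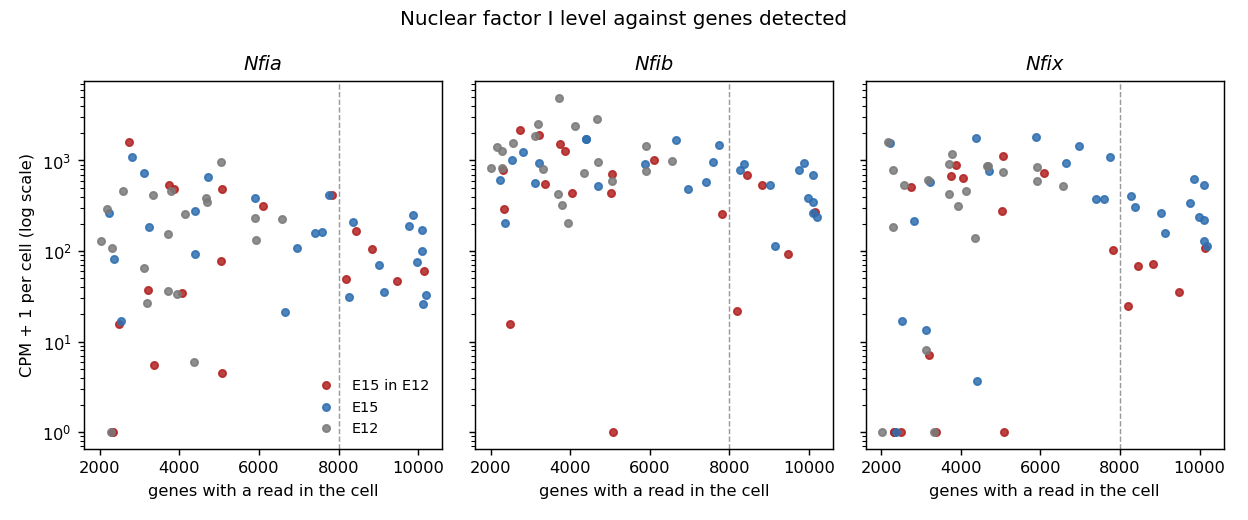
CPM plus 1 of each gene in each cell, on a log axis, against the number of genes with a read in that cell, coloured by group, with a dashed line at 8000 genes. Right of the line, the transplanted cells lie below all E15 cells for Nfix and overlap them for Nfia and Nfib.

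The make-up of the nuclear factor I reads does not depend on the scaling of a cell's total. Of the reads of the 3 genes together, Nfix made up 18.1% in transplanted (exact limits 17.2% to 19%), 37.6% in E15 (37.2% to 38%) and 27.5% in E12 cells (26.6% to 28.4%). Nfia made up 26.9% in transplanted, 10.7% in E15 and 10.6% in E12 cells. Nfib made up 55% in transplanted, 51.7% in E15 and 61.9% in E12 cells. Shares are compared between groups and not between genes, as reads per transcript can differ from gene to gene. In the cells with more than 8000 genes the Nfix share was 17.7% in transplanted and 33% in E15 cells, and in the other cells 18.4% in transplanted and 41.6% in E15 cells. The high Nfia share of transplanted cells came largely from replicate 19, without which it was 16.5%, and the Nfix share was then 20%. Over cells with at least 20 reads of the 3 genes, the median Nfix share was 22.3% in 16 transplanted, 33.7% in 25 E15 and 31.1% in 18 E12 cells, with ranges of 0% to 57.6%, 0.146% to 71.4% and 0% to 60%. The lower Nfix share of transplanted cells was thus found in sums and in medians, within ranges that overlapped.

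**Figure D5:**
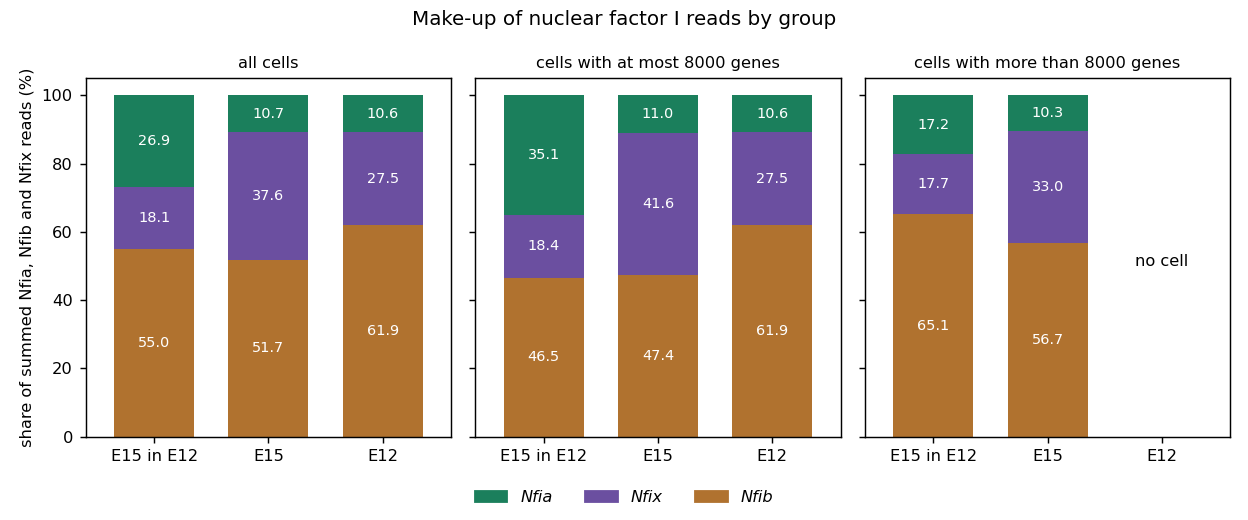
Share of Nfia, Nfib and Nfix in their summed reads, in percent, for transplanted, E15 and E12 cells, in all cells and on either side of 8000 genes. The Nfix share is 18.1% in transplanted, 37.6% in E15 and 27.5% in E12 cells over all cells, and no E12 cell had more than 8000 genes.

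Whether cells high in 1 member were high in another was read from rank correlations. Over the 19 transplanted cells the Spearman rank correlation of CPM was 0.84 between Nfia and Nfix, 0.50 between Nfia and Nfib and 0.47 between Nfib and Nfix. The same pairs gave 0.41, 0.31 and 0.36 over the 26 E15 cells, and 0.35, -0.11 and 0.22 over the 20 E12 cells. On the deposited values, from which directions over cells had been removed, Nfia and Nfix gave 0.64 in transplanted, 0.36 in E15 and 0.08 in E12 cells. These cells share pools, depth and detection limits, and the difference between groups was not tested. Over transplanted cells Nfix gave -0.56 with the sum of microglia and macrophage markers, -0.27 with that of erythroid and 0.30 with that of apical progenitor markers. It gave -0.29 with neuron markers, -0.25 with ventral telencephalon and interneuron markers and -0.22 with total reads. With microglia and macrophage markers it gave -0.07 in E15 and 0.07 in E12 cells. The values were 0.11 and -0.05 with erythroid, and 0.37 and -0.20 with apical progenitor markers. All 3 genes had a read in 8 of 17 transplanted, 15 of 24 E15 and 12 of 17 E12 cells at the drawn depth.

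The genes whose levels over the 65 cells were most like each member were found by rank correlation among 8462 genes read in at least 30% of cells, leaving out predicted genes. For Nfix these were Idh2, a mitochondrial isocitrate dehydrogenase (0.56), Sfrp1, a secreted Wnt antagonist (0.54), Hnrnpd, an RNA-binding protein (0.53), Pkm, a glycolytic enzyme (0.53), and Fam210b (0.51). For Nfib they were Mfap2, a microfibril protein (0.63), Pax6, a transcription factor of dorsal radial glia (0.45), Mt1, a metallothionein (0.42), Plpp3, a lipid phosphatase (0.42), and Idh2 (0.39). For Nfia they were Nr2e1, a nuclear receptor of neural stem cells (0.56), Ipo9, an importin (0.52), Ranbp3 (0.50), Dbi, an acyl-CoA-binding protein (0.50), and Ddah1 (0.49). Nfix itself gave 0.51 with Nfia, which put Nfix at rank 3 in the list of Nfia and Nfia at rank 8 in the list of Nfix. Nfib ranked 124 in the list of Nfia and 57 in that of Nfix. In the list of Nfib, Nfia ranked 31 and Nfix 5. The median over all genes compared was -0.01 for Nfia, -0.15 for Nfib and 0.03 for Nfix. At the drawn depth Nr2e1, Mfap2 and Idh2 again led the lists of Nfia, Nfib and Nfix, and 27, 24 and 20 of the first 50 genes were shared. On the deposited values 14, 4 and 15 of the first 50 were shared, so most of these neighbours depended on the scale.

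Nfic, the remaining family member, was read far less often than the other 3. It had 19.97 CPM in transplanted, 44.5 CPM in E15 and 19.8 CPM in E12 cells, with a read in 10 of 19, 17 of 26 and 1 of 20 cells. The E12 reads all came from that 1 cell, and the log2 ratio of E15 over E12 cells, 1.13, was 5.51 without it. Transplanted over E15 cells gave -1.12, but 0.03 on mean CPM per cell.

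Genes reported as regulated or bound by nuclear factor I proteins in neural cells did not move as 1 group. Of 15 listed genes, 12 were in the tables. In transplanted over E15 cells 5 of the 12 were higher and 7 lower, 1 and 4 of them past 2-fold, with a median log2 ratio of -0.25 beside -0.08 over all genes. Of all genes 4.71% were higher and 11.8% lower past 2-fold. Without the libraries above 8000 genes 3 of the 12 were higher and 9 lower, 2 and 6 past 2-fold. The shares over all genes were then 18.7% and 28%. Tnc, the matrix protein tenascin-C, had 3 reads (0.236 CPM) in transplanted and 2315 reads (61.8 CPM) in E15 cells. This was a ratio of 262 with counting limits of 89.5 to 1271, and a read in 2 of 19 and 14 of 26 cells. Mmd2, reported downstream of NFIA in the spinal cord, had 12.7 CPM in transplanted and 51.0 CPM in E15 cells, and a read in 6 of 19 and 20 of 26 cells. Ezh2, a histone methyltransferase reported to be repressed by NFIB, had 334 CPM in transplanted and 240 CPM in E15 cells. Fabp7 had 3038 CPM in transplanted and 2611 CPM in E15 cells, but 6959 and 8230 CPM without the libraries above 8000 genes. In transplanted over E12 cells 4 were higher and 8 lower, 3 and 7 past 2-fold (median -1.37, all genes -0.09). Without the libraries above 8000 genes 5 were higher and 7 lower, 3 and 6 past 2-fold. Of all genes 22.9% were higher and 24.7% lower past 2-fold, and 22.5% and 29.8% without these libraries. In E15 over E12 cells 5 were higher and 7 lower, 4 and 6 past 2-fold (median -0.58, all genes -0.03), but 5 and 0 past 2-fold without the libraries above 8000 genes, and a median of 0.44 on mean CPM per cell. Here 25.3% of all genes were higher and 20.3% lower past 2-fold, and 24.2% and 21.6% without these libraries. Both comparisons of the transplanted cells share those cells, and both of the E12 cells share theirs.

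The wider gliogenic programme was described through 3 further lists, which share some genes with the first and with each other. Of all genes, 4515 were higher and 5648 lower in transplanted than in E15 cells, 4.71% and 11.8% past 2-fold. Without the libraries above 8000 genes the shares past 2-fold were 18.7% and 28%. In transplanted over E12 cells, 22.9% of all genes were higher and 24.7% lower past 2-fold, and 22.5% and 29.8% without these libraries. In E15 over E12 cells these shares were 25.3% and 20.3%, and 24.2% and 21.6% without these libraries. Among astrocyte and late radial glia genes, 21 were in the tables and 20 had at least 5 CPM in transplanted or E15 cells. Of these 20, 2 were higher and 18 lower in transplanted than in E15 cells, 2 and 11 past 2-fold, with a median of -1.15. Without the libraries above 8000 genes 4 of 21 were higher and 17 lower, 2 and 14 past 2-fold. Hopx, a homeodomain protein of late radial glia, had 5.35 CPM in transplanted, 56.3 CPM in E15 and 112 CPM in E12 cells. It was thus not higher in E15 than in E12 cells in summed reads. Without the libraries above 8000 genes it had 7.54 CPM in transplanted and 183 CPM in E15 cells. It had a read in 4 of 19 transplanted, 15 of 26 E15 and 9 of 20 E12 cells. Dbi had 2357 CPM in transplanted and 2431 CPM in E15 cells. In E15 over E12 cells 12 of 21 were higher and 9 lower (8 and 6 past 2-fold, median 0.31), but 17 higher and 4 lower (12 and 3, median 1.23) without the libraries above 8000 genes. In transplanted over E12 cells 6 of 21 were higher and 15 lower (2 and 12 past 2-fold), but 10 higher and 11 lower (5 and 7) without these libraries. Among other regulators of the gliogenic switch, 9 of 21 were higher and 12 lower in transplanted than in E15 cells, 0 and 2 past 2-fold, and 2 and 8 past 2-fold without the libraries above 8000 genes. Zbtb20, a zinc finger factor known to promote astrocyte formation, had 151 CPM in transplanted and 410 CPM in E15 cells. Il6st, the gp130 receptor subunit, had 1.42 CPM in transplanted and 8.78 CPM in E15 cells. It had a read in only 2 of 19 transplanted and 11 of 26 E15 cells. Lhx2 went the other way, with 296 CPM in transplanted and 177 CPM in E15 cells. In E15 over E12 cells 8 of 22 were higher and 14 lower (6 and 8 past 2-fold), but 11 were higher and 11 lower without these libraries. On thinned reads 14 were higher and 8 lower, and as means within pools 13 were higher and 9 lower. Of all 10193 genes, 5346 were higher and 4836 lower on thinned reads, and 8616 higher and 1577 lower as means within pools. In transplanted over E12 cells 7 of 22 were higher and 15 lower (5 and 9 past 2-fold). Of 12 early temporal identity genes, 7 were in the tables and 6 had at least 5 CPM in transplanted or E15 cells. All 6 were higher in transplanted than in E15 cells, 2 past 2-fold (median 0.95). With no such filter 6 of 7 were higher and 1 lower, 2 and 1 past 2-fold (median 0.92). Without the libraries above 8000 genes 5 of 7 were higher and 2 lower, 2 of each past 2-fold. All 7 measured were lower in E15 than in E12 cells, 5 past 2-fold (3 without these libraries), and 5 of 7 were lower in transplanted than in E12 cells, 4 past 2-fold (3 without these libraries).

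The deposited log10 residuals, which are centred over cells for each gene, put transplanted cells lowest for all 3 genes by their medians. The median residual of Nfix was -0.52 in transplanted (range -1.06 to 1.26), 0.17 in E15 (-1.04 to 1.08) and 0.13 in E12 cells (-1.27 to 1.67). For Nfia it was -0.20 in transplanted (-0.92 to 1.54), 0.11 in E15 (-0.87 to 0.78) and 0.00 in E12 cells (-1.30 to 0.76). For Nfib it was -0.07 in transplanted (-1.54 to 0.56), 0.09 in E15 (-0.56 to 0.49) and 0.03 in E12 cells (-0.80 to 0.62). In a fit of group membership on the directions the authors had removed, 24.2% of variance was lost for E12, 8.81% for E15 and 3.31% for transplanted cells, so the residuals had lost unequal parts of the difference between groups.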

How the data were processed

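Each of 65 single cells gave 1 Patch-seq library. Per the labels' protocols, the SMART-Seq v4 3' DE and Nextera XT kits were used, and no molecular identifiers are mentioned. Per the submitters' processing notes, STAR, HTSeq and mm10 were used, with no versions given. What the authors deposited are residuals on a log10 scale, and the values themselves show that each of the 10407 genes was centred over the 65 cells and that 2 further directions over cells were removed, which leaves a rank of 62. Read counts were recovered from these deposited log10 values, from the cells at 0 for 9801 genes, Nfix among them, and by a search for whole reads for 606, Nfia and Nfib among them. All 356667 non-zero values came within 0.0001 of a whole number, 0 genes were ambiguous, and no gene had a read in fewer than 6 cells. The recovery and the ratios were tested on simulated data. Fitted on the removed directions, the number of genes detected lost 74.5% of its variance and log10 reads 41.3%.

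Groups came from the labels. Reads were summed within a group and scaled to CPM over the genes in the tables, with 1 CPM added for log2 ratios. Genes needed 5 CPM in either group, and a ratio counted as a difference past 2-fold. Limits at 95% were exact Poisson for levels, exact binomial for shares and conditional binomial for ratios. A group or cell at 0 was given a floor of 3 reads. The members, the 5 gene lists and the marker lists were chosen with earlier results of these data known. Genes outside the members were named by rule, namely the 5 with the highest rank correlation with a member over cells, and in each list and comparison the 2 of highest CPM and the 2 of largest log2 ratio at most. Not all genes that met the list rule are printed. Of the 12 marker lists, those of pericytes and Cajal-Retzius cells had no gene in the tables.

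Alternatives were mean CPM per cell, reads thinned to 28614 per cell, TMM factors from own code, 0.1 or 5 CPM added, filters of 20 CPM or none for lists, and means of ratios within pools. Others left out libraries above 8000 genes, the 10 cells below 56568 reads, each cell and each pool. Mean CPM without the libraries above 8000 genes was added after the values had been seen. Python 3.11.15, NumPy 2.4.6, SciPy 1.17.1, Numba 0.67.0 and Matplotlib 3.10.9 were used.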

Additional observations from a re-analysis of the deposited data

How the results depend on the processing

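No paired analysis was possible because replicate numbers only name the cells and no result comes from a test. Pool letters are shared between groups, and the means within pools below compare groups inside each pool. Log2 ratios are given as Nfia, Nfib and Nfix, for transplanted over E15, transplanted over E12 and E15 over E12 cells in turn. With all cells summed they were 0.18, -1.06 and -2.20, then -0.45, -1.96 and -2.39, then -0.63, -0.90 and -0.19. On mean CPM per cell they were 0.058, -0.22 and -0.996, then -0.020, -1.02 and -1.07, then -0.078, -0.80 and -0.076. On thinned reads, which left out 7 cells, they were -0.26, -0.58 and -1.08, then -0.47, -1.41 and -1.23, then -0.21, -0.83 and -0.15. With TMM factors they were 0.24, -0.99 and -2.13, then -0.32, -1.83 and -2.26, then -0.53, -0.80 and -0.093. As means within pools they were -0.086, -0.37 and -2.15, then -0.30, -1.35 and -2.71, then -0.20, -1.04 and -0.43, while the median of all genes moved to -0.63, 0.80 and 1.33 in the 3 comparisons. Without the libraries above 8000 genes they were 0.22, -1.47 and -2.61, then 0.50, -1.63 and -1.80, then 0.28, -0.16 and 0.82. On mean CPM without these libraries they were -0.11, -0.27 and -1.05, then 0.28, -0.77 and -0.72, then 0.39, -0.50 and 0.34.

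Leaving out each cell or pool gave -0.71 to 0.51 for Nfia, -1.38 to -0.88 for Nfib and -2.48 to -1.94 for Nfix in transplanted over E15 cells. In transplanted over E12 cells it gave -1.37 to -0.14, -2.37 to -1.74 and -2.64 to -2.15, and in E15 over E12 cells -1.08 to -0.31, -1.47 to -0.70 and -0.62 to 0.11. Nfix stayed below 0 in both comparisons of transplanted cells under every alternative listed here. Nfic in transplanted over E15 cells turned to 0.028 on mean CPM per cell, and the median of the listed nuclear factor I targets in transplanted over E12 cells turned to 0.32 as a mean within pools, and the cause was not tested. Other pseudocounts and leaving out shallow cells kept each ratio of the members on its side of 2-fold. Having 1 sample a group and 1 to 5 cells of a group in a pool limits every value here, and a cell of 39900 reads without a read could still hold up to 75.2 CPM.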
